A study of Mus musculus with 15 samples.

Results

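MCOPPB was compared with saline in livers of mice with diet- and carcinogen-driven fatty liver disease. The comparison used 7 of the series' 15 RNA-seq libraries, chosen by their sample titles: 3 from DEN/HFD mice given MCOPPB and 4 from DEN/HFD mice given saline. All 15 libraries came from livers of male C57BL6J mice aged 9.5 months, 1 library per animal. Every DEN/HFD animal, controls included, had received diethylnitrosamine (DEN, a carcinogen that liver cells activate) at 25 mg/kg when 2 weeks old. These mice ate chow until week 6 and then a high fat diet (HFD) with 60% of energy from lard for 32 weeks. MCOPPB was injected intraperitoneally at 5 mg/kg on 5 consecutive days, followed by 2 days of washout, in 3 such cycles over 21 days, and the controls were injected with saline. The other 8 libraries, 5 with MCOPPB and 3 with saline, came from chow mice that had received the DEN vehicle. They entered the statistical model and served for a test of whether an MCOPPB difference depended on the diet and carcinogen, which were given together and cannot be told apart. The time of day at which livers were taken is not given in the sources used here.

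MCOPPB is an agonist of the nociceptin/orphanin FQ receptor (NOP, gene Oprl1), a Gi-coupled receptor of the opioid family that is best known from the nervous system, and the series title names it as a senolytic, a compound meant to remove senescent cells. Male and female rodent liver differ in many cytochromes P450, transporters and secreted proteins, largely because growth hormone is released in pulses in males and more continuously in females, which is read by the transcription factor STAT5b. Liver also carries a strong circadian clock, in which CLOCK or NPAS2 with BMAL1 (gene Arntl) drives the Per and Cry repressors through E-box motifs and drives output factors such as DBP and TEF, which in turn bind D-box motifs.

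Levels are given as normalized counts, obtained by inverting the authors' variance-stabilised log2 values, and differences as MCOPPB minus saline on the variance-stabilised log2 scale with the limma standard error (SE). That scale compresses differences of genes with few reads. A gene was kept if it lay at least 1 log2 unit above the lowest value of the table, equal to 22.5 normalized counts, in at least 3 of the 15 libraries. It was called at a Benjamini-Hochberg adjusted p under 0.05 over all 11568 kept genes.

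The 7 libraries held an estimated 9.32 M to 18.2 M assigned reads and 14937 to 16675 genes above the lowest value, with albumin (Alb) as the most abundant gene in each. DEN/HFD MCOPPB 1 had the lowest estimated depth and the most genes above the lowest value. DEN/HFD saline 4 stood apart from the other 6: on the first principal component, which held 36.5% of the variance, it lay at 39.0 while the others lay between -20.6 and 11.98. It is a control animal, and values without it are given beside some of the results in which it leads. A result printed without such a value can still depend on it. RNA integrity numbers averaged 8.85 ± 0.342 (SD, n = 4) with saline and 9.00 ± 0.265 (n = 3) with MCOPPB (exact permutation test, two-sided, p = 0.600, where 0.0286 is the smallest p that 4 against 3 animals allow). Transcripts of the mitochondrial genome took 16.6% ± 4.78 and 19.7% ± 0.896 of normalized counts (p = 0.371 in the same exact test). The labels do not state that animals came from separate litters or cages, so p-values measure the spread between these animals.

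Of 11568 genes, 3 were called, or 0.0259%: the steroid hydroxylase gene Cyp17a1 was higher with MCOPPB (1 gene, 0.00864%), and the methyltransferase gene Inmt and the ubiquitin protease gene Usp2 were lower (2 genes, 0.0173%). Cyp17a1 encodes an enzyme that makes androgen precursors in the gonads and that mouse liver expresses with a female bias. Its normalized counts were 184, 279, 206 and 132 in saline 1 to 4 and 559, 855 and 985 in MCOPPB 1 to 3. The groups did not overlap, and every MCOPPB animal lay well above the highest saline animal. The difference was 1.64 ± 0.26 (limma adjusted p = 0.0312), and the ratio of group means was 3.99. Cyp17a1 (ENSMUSG00000003555.8) lies on the minus strand of chromosome 19, from 46667165 to 46673172 (GRCm38).

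Inmt encodes indolethylamine N-methyltransferase, which methylates indoleamines and other small amines with S-adenosylmethionine. Its normalized counts were 3692, 3576, 3786 and 7118 with saline and 1562, 1122 and 1149 with MCOPPB. Saline 4 was the highest library, and the other 3 saline animals lay close together and above every MCOPPB animal. The difference was -1.71 ± 0.27 (limma adjusted p = 0.0312) with all libraries and -1.48 without saline 4. Chow mice ranged from 4783 to 6839 with saline and from 4076 to 8084 with MCOPPB, so the DEN/HFD MCOPPB animals had the lowest Inmt levels of all 15. Inmt (ENSMUSG00000003477.5) lies on the minus strand of chromosome 6, from 55170626 to 55175043.

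Usp2, a deubiquitinase whose liver transcript is a known output of the circadian clock, was at 352, 307, 294 and 579.8 normalized counts with saline and at 49.7, 50.0 and 66.3 with MCOPPB. The MCOPPB values were tight, and their mean was 0.144 times the saline mean. The difference was -1.82 ± 0.29 (limma adjusted p = 0.0312). Usp2 (ENSMUSG00000032010.15) spans bases 44067021 to 44095627 of chromosome 9 (plus strand), and the annotated genes that overlap it on the other strand were at 0 in these livers.

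The 3 calls were lost when single libraries of the comparison were left out. No gene was called by limma when any 1 of the 7 DEN/HFD libraries or chow saline 3 was left out, while the differences themselves stayed between 1.49 and 1.86 for Cyp17a1, -1.86 and -1.48 for Inmt, and -1.91 and -1.64 for Usp2 over the 7 fits, with adjusted p from 0.0675 to 0.362. All 3 genes stayed called without any 1 of the other 7 chow libraries. In a fit of the 7 DEN/HFD libraries alone Cyp17a1 and Usp2 were called and Inmt was not. The fourth smallest adjusted p was 0.0753. At an unadjusted p under 0.05 stood 548 genes (4.74%), 266 higher (2.30%) and 282 lower (2.44%), and the groups did not overlap for 805 genes (6.96%), 372 higher (3.22%) and 433 lower (3.74%) with MCOPPB. These unadjusted shares are the background for the gene lists below, and genes outside the 3 calls are given as values. If no gene differed, a share of 0.05 would fall under that unadjusted threshold, which the 548 genes do not exceed. No overlap in a given direction is 1 of the 35 arrangements of 4 and 3 animals, a share of 0.0286, close to the shares seen.

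**Figure D1:**
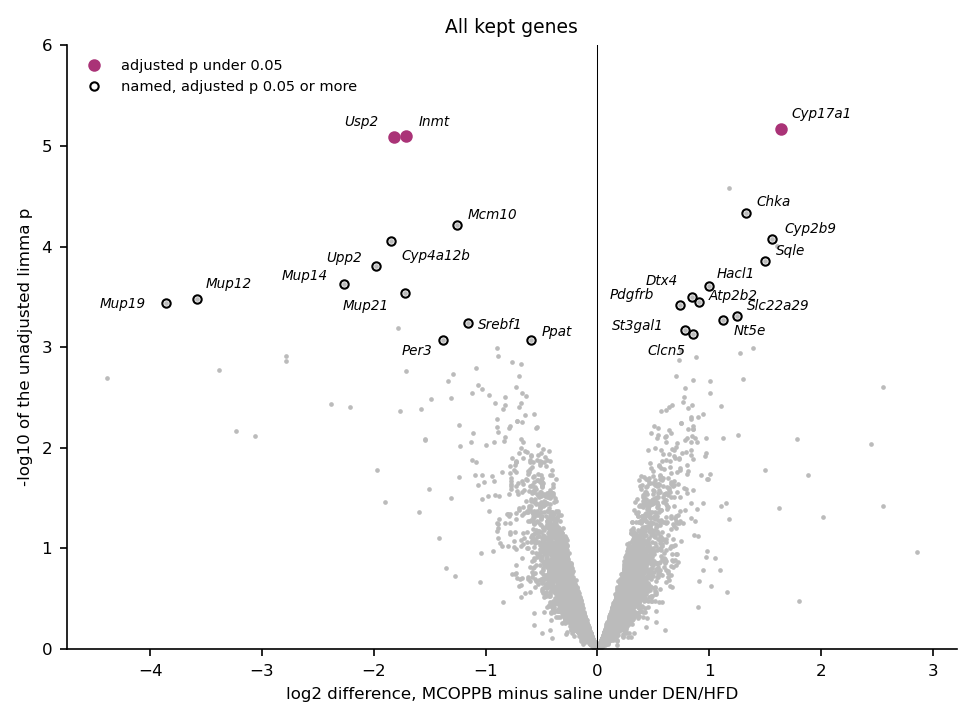
Each point is 1 of 11568 kept genes, with the log2 difference (MCOPPB minus saline, DEN/HFD) on the x axis and the -log10 of the unadjusted limma p on the y axis. The 3 called genes stand at the top, Cyp17a1 at 1.64 on the right and Inmt and Usp2 at -1.71 and -1.82 on the left; open circles mark the 21 other named genes with the smallest p and no overlap of the groups, none of them called.

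The bases before the start sites of the called genes and of clock output genes are shown because many clock genes had lower values with MCOPPB, as described next. The windows are 250 bases upstream of the start that RefSeq annotates on GRCm38.p6, written 5′ to 3′ on the gene's strand. By the GENCODE M21 bounds of the genes, the Usp2 and Tef windows lie inside the gene. Those of Dbp and Inmt reach into it, and that of Per3 lies outside. Capitals mark matches on either strand to an E-box (CACGTG), a D-box (TTATGTAA or TTACGTAA) or a STAT5 motif (TTCNNNGAA), and no match overlapped another. Cyp17a1 is named only.
Inmt, chr6:55174991-55175240, minus strand: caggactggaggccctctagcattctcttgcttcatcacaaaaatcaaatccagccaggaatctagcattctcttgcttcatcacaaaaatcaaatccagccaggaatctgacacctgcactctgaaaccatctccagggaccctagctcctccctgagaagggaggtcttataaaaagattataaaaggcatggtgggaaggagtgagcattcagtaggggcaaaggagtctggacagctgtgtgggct
Usp2, chr9:44084670-44084919, plus strand, a start inside the annotated gene: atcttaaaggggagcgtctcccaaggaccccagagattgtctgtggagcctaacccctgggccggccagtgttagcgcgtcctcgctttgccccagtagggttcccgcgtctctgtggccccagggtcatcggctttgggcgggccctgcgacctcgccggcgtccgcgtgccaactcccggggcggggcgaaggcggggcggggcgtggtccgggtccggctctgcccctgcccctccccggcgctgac
Dbp, chr7:45704997-45705246, plus strand: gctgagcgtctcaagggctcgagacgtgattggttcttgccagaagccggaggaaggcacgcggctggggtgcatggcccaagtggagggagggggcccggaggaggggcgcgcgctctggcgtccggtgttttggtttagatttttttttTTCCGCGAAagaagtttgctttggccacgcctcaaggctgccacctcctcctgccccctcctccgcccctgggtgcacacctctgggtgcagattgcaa
Tef, first start, chr15:81802423-81802672, plus strand: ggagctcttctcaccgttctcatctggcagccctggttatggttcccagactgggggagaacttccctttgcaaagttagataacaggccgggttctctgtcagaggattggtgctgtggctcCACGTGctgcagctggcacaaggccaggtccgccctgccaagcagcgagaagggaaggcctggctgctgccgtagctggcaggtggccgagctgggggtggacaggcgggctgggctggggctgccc
Tef, second start, chr15:81811164-81811413, plus strand: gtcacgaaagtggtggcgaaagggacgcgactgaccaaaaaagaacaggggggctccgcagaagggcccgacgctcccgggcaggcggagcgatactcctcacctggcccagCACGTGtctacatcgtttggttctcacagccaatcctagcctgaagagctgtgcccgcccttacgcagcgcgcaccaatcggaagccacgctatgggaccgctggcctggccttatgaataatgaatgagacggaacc
Per3, chr4:151044666-151044915, minus strand: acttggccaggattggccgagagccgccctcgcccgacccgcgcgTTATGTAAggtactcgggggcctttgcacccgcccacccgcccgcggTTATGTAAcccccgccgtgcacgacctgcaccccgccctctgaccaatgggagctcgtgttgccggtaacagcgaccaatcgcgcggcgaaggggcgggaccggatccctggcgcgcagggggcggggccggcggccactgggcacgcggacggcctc
Neither the Inmt nor the Usp2 window held a match. Both Tef windows held an E-box, which begins at -127 and at -138 from the respective start and which 6.02% of all 32851 such windows hold. The Dbp window held a STAT5 motif at -99, found in 7.02% of windows. Per3, chosen for display after its values were seen, held a pair of D-boxes at -205 and -158, and TTATGTAA occurs in 0.819% of windows. A match is a stretch of letters and does not show binding.

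Clock output and core clock genes were mostly lower with MCOPPB. Of 19 kept clock output genes, 15 had a negative difference and 8 had an unadjusted p under 0.05, all 8 lower, where 2.44% of all genes were lower at that p. The groups did not overlap for 4 lower members and 1 higher member, where 3.74% and 3.22% of all genes did so. The median difference was -0.50 for this list and -0.0038 over all kept genes, and Usp2 was its called member. Dbp, a PAR-bZIP transcription factor with a strong daily rhythm, was at 1914, 1800.3, 1713 and 1827 with saline and at 494, 313 and 756 with MCOPPB. All 4 saline animals lay within a narrow band and all 3 MCOPPB animals far below it. The difference of -1.71 ± 0.46 was not called (limma adjusted p = 0.485) in the model with all 15 libraries, where chow animals spread from 489 to 3950.1, and it was called in the fit of the 7 DEN/HFD libraries alone (limma adjusted p = 0.0342). Tef, a related factor, had 456, 712, 498 and 981 against 271, 248 and 392, with no overlap (-0.91 ± 0.27). The Dbp value is exposed to reads of Sphk2, a gene that overlaps it on the opposite strand and averaged 283 with saline and 411 with MCOPPB.

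Within the core clock, 13 of 17 kept genes had a negative difference (median -0.37), and 4 had an unadjusted p under 0.05, all lower. The period repressor Per3 was at 89.7, 166, 143 and 303 with saline and at 31.6, 3.83 and 60.9 with MCOPPB. Per2 was at 287, 160.0, 118 and 200.1 against 60.1, 28.6 and 73.1. Neither gene overlapped between the groups, and their differences of -1.38 ± 0.34 and -1.09 ± 0.40 were not called (limma adjusted p = 0.366 and 0.853). Bhlhe41, a repressor of CLOCK and BMAL1, was at 73.5 to 105 with saline and at 10.5 to 41.3 with MCOPPB. Per1 overlapped, at 50.5 to 128 against 15.5 to 50.9, and so did the repressor gene Nr1d1, which codes for REV-ERB alpha, at 470.5 to 599 against 437 to 693.

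Genes of the clock's activators are given by library. Npas2, which encodes the partner of BMAL1 that can replace CLOCK, was at 0 in all 4 saline livers and at 33.5, 20.2 and 20.8 in the 3 MCOPPB livers. Chow livers held 0 to 1.05 with saline and 0 to 4.59 with MCOPPB, so the 3 DEN/HFD MCOPPB livers had the highest Npas2 levels of the 15. Npas2 fell below the level filter and has no value in the main fit, and without the filter it had the smallest adjusted p (limma, 0.00647). It was singled out after its values were seen, and a gene at 0 in most libraries has a small estimated spread. Arntl was at 13.6, 7.88, 5.89 and 16.5 against 88.2, 67.3 and 8.82, so MCOPPB 3 lay among the saline values while MCOPPB 1 and 2 lay above them. Clock itself overlapped, at 77.3 to 151 and 87.9 to 207. Saline 4 had the highest Per3, Tef and Usp2 levels, and without it the medians were -0.27 for the core clock and -0.34 for clock output.

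**Figure D2:**
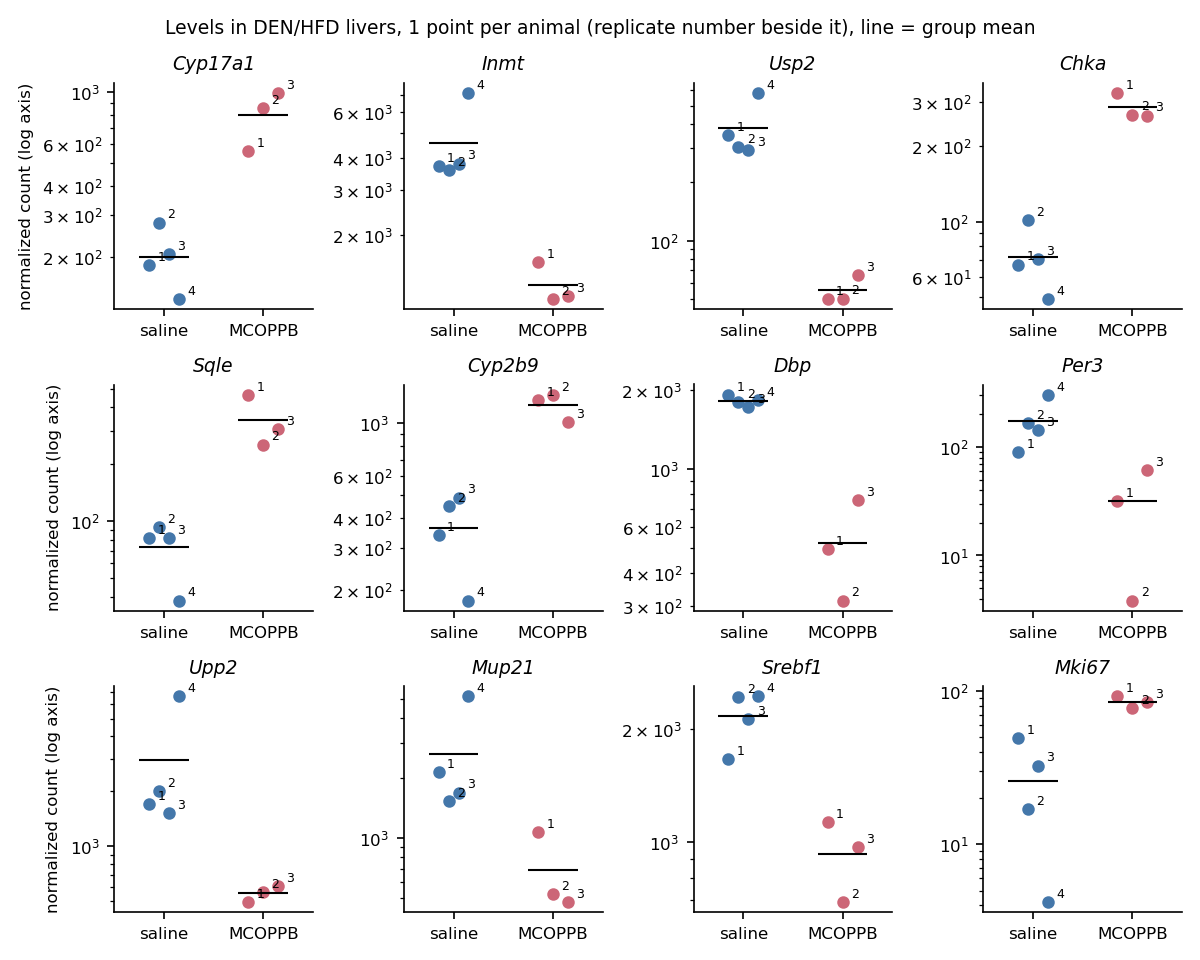
Normalized counts of 12 genes on log axes, 1 point per DEN/HFD animal with its replicate number and a line at the group mean. For all 12 genes the saline and MCOPPB animals occupy separate ranges, a trait by which most of them were named. Saline 4 is the saline animal farthest from the MCOPPB animals for every gene shown except Dbp, though for Srebf1 by a small margin (2449 beside 2441 in saline 2).

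Genes with a male bias in mouse liver had lower values with MCOPPB, and genes with a female bias had higher ones. In all, 32 of the 33 kept male-biased genes lay below 0 in the difference (median -1.24), where 49.3% of all kept genes lay above it. At an unadjusted p under 0.05 there were 23 lower and 0 higher, and the groups did not overlap for 18, where 3.74% of all genes were lower without overlap. No member was called. Major urinary proteins (Mup), small pheromone carriers that male liver secretes in bulk, led the list. Their reads can match several near-identical genes, so the sum over 22 Mup genes is given: 874751, 1004109, 998687 and 4849575 normalized counts with saline and 611846, 239976 and 335676 with MCOPPB. The MCOPPB livers lay below every saline liver, and saline 4 was far above the other 3. The MCOPPB mean was 0.205 times the saline mean, and 0.413 times without saline 4. Mup12 showed the same order, with 1044, 2490.2, 1374 and 35202 against 591, 95.7 and 133 (-3.58, and -2.47 without saline 4). The difference of the list was smaller without saline 4, at a median of -0.81 with 31 of 33 negative.

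Male-biased genes outside the Mup cluster included fatty acid hydroxylases, a steroid enzyme and a transporter. Cyp4a12a and Cyp4a12b, arachidonic acid hydroxylases with shared sequence, summed to 2652, 679.8, 775 and 970.4 with saline and to 481, 15.1 and 157 with MCOPPB. Hsd3b5, a male-specific 3-ketosteroid reductase, was at 27.9, 66.3 and 48.4 in saline 1 to 3, at 2053 in saline 4, and at 7.96, 1.68 and 6.59 with MCOPPB. Its ratio of means was 0.00985 with saline 4 and 0.114 without it. Slco1a1, a sinusoidal organic anion transporter, had 362, 378, 698 and 2345 against 229.5, 0 and 36.4 (-2.79, and -2.25 without saline 4). None of these overlapped, and within the MCOPPB group replicate 1 had the highest level of all 4 genes and of the Mup sum. C6, a complement component, was at 939 to 1717 with saline and 408 to 897 with MCOPPB (-0.92 ± 0.31, not called).

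Of the female-biased list, 27 of 30 kept genes lay above 0 (median 0.37), 10 had an unadjusted p under 0.05, all higher, and Cyp17a1 was called. Cyp2b9, a cytochrome P450 of female liver, was at 339, 447, 487 and 181 against 1249.6, 1309.7 and 1011. The groups were well separated, with a difference of 1.57 ± 0.31 that was not called (limma adjusted p = 0.126). Its neighbour and close relative Cyp2b13 was at 10.4 to 25.9 with saline and 66.9 to 84.9 with MCOPPB. Slc22a27, an organic anion transporter, was at 147, 83.8, 107 and 16.5 against 191, 468 and 257, again without overlap. Cyp2a4 overlapped, with 2.11 to 295 against 216 to 1162. Its reads can be shared with Cyp2a5, and the sum of both overlapped at 6742 to 16607 against 6594 to 8558. The ratio of means of that sum was 0.723, below the saline level. Without saline 4 the median of this list was 0.38, with 24 of 30 above 0. Genes that carry the growth hormone signal did not separate the groups: of 14 kept, none had an unadjusted p under 0.05. The receptor gene Ghr was at 4090.1 to 6258 against 3563 to 4385, Stat5b at 219 to 273 against 215 to 334, and Igf1 at 4099.6 to 7882 against 6514 to 7163. Bcl6, a repressor of female-biased genes, was at 90.5 to 579 against 122 to 235.

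**Figure D3:**
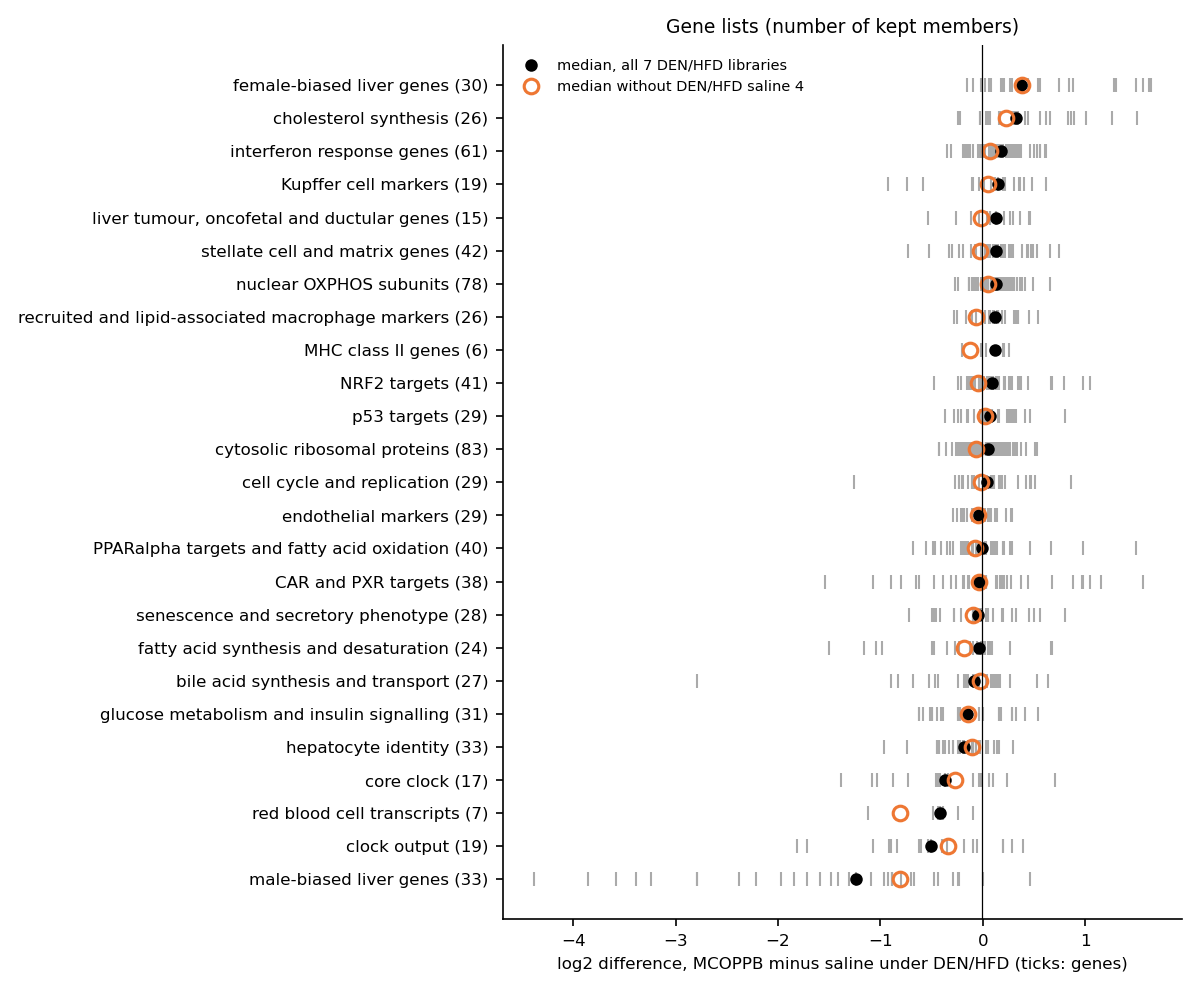
Each row is a gene list with the number of kept members in brackets. Grey ticks are the members' log2 differences (MCOPPB minus saline), filled points their median with all 7 DEN/HFD libraries, and open circles the median without saline 4; the male-biased median goes from -1.24 to -0.81 and the stellate cell median from 0.13 to -0.02.

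Genes of cholesterol synthesis mostly had higher values with MCOPPB, and none was called. Of 26 kept cholesterol genes, 22 had a positive difference (median 0.32, and 0.23 without saline 4), 8 had an unadjusted p under 0.05, all higher, and 9 did not overlap, all higher. Sqle, squalene epoxidase, was at 81.4, 93.3, 81.4 and 38.1 with saline and at 465, 254 and 306 with MCOPPB (1.502 ± 0.31, limma adjusted p = 0.161). Hmgcs1, the HMG-CoA synthase of the cytosol, was at 2566, 1977, 2073 and 841 against 4391, 3943 and 4488. Cyp51, lanosterol demethylase, was at 545 to 826 against 1354 to 1525. These genes separated the groups although none was called, and saline 4 was the lowest library for Sqle, Hmgcs1 and Cyp51.

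Srebf1, which encodes the lipogenic factor SREBP1, was at 1666, 2441, 2123 and 2449 with saline and at 1128, 689 and 969 with MCOPPB. The groups did not overlap, and the difference was -1.16 ± 0.28 (limma adjusted p = 0.303). Among 24 kept genes of fatty acid synthesis, 4 had an unadjusted p under 0.05, all lower, and 11 had a positive difference (median -0.04). Thrsp, a lipogenic co-regulator, was at 4100.3 to 8464 against 1016 to 4657. Fasn, fatty acid synthase, was at 4775, 5539, 5308 and 1887 against 3205, 3235 and 7422, with saline 4 the lowest of the 7. Without saline 4 the list had 5 of 24 positive and a median of -0.19. The canalicular and intestinal sterol exporter genes Abcg5 and Abcg8, which overlap each other on opposite strands, were at 456 to 732 against 178 to 313 and at 513 to 943 against 277 to 392. Cyp7a1, the rate-limiting enzyme of bile acid synthesis, spread from 114 to 869 with saline and from 83.2 to 382 with MCOPPB.

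In choline and methyl group metabolism, the called Inmt stood beside Chka, the kinase that starts phosphatidylcholine synthesis. Chka was at 67.3, 101, 70.8 and 49.0 with saline and at 326, 268 and 266 with MCOPPB, with no overlap and a ratio of means of 3.97. Its difference of 1.33 ± 0.25 was not called (limma adjusted p = 0.106) and was called in the fit of the 7 libraries alone. The list of 33 genes had no common direction, with 13 positive. Etnk2, an ethanolamine kinase, was at 1176 to 2414 against 895 to 1116.

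Other genes with small p and no overlap had varied roles. Mcm10, a replication initiation factor, was at 447, 629, 686 and 962 with saline and at 241, 227 and 220.2 with MCOPPB (-1.25 ± 0.24, limma adjusted p = 0.117). Upp2, a uridine phosphorylase, was at 1703, 2006, 1526 and 6627 against 495, 563 and 606 (-1.98, and -1.51 without saline 4). Ppat, the amidotransferase that opens purine synthesis, was at 199 to 259.6 against 105 to 134. Higher values were seen for Pdgfrb, the PDGF receptor of stellate cells (29.4 to 47.3 against 94.3 to 107), Nt5e, the ectonucleotidase CD73 (17.9 to 57.1 against 101 to 192), and Hacl1, a peroxisomal lyase (373 to 727 against 1134 to 1595), which overlaps Btd on the opposite strand. The stress-response factor Atf5 was at 2107 to 3164 against 4219.7 to 5366, and St3gal1, a sialyltransferase, at 396 to 522 against 701 to 934. Dtx4, a ubiquitin ligase, was at 32.6 to 67.6 against 110.0 to 156, and Atp2b2, a plasma membrane calcium pump, at 6.31 to 14.5 against 41.6 to 83.7. The remaining genes of this rule were Slc22a29 and Clcn5, both higher, and Mup14, Mup19, Mup21 and Cyp4a12b, all lower, with adjusted p from 0.126 to 0.340.

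Genes that bear on the compound's name as a senolytic showed no separation as a group. Of 45 listed senescence and secretory genes, 28 were kept, 11 with a positive difference (median -0.05), with 2 higher and 1 lower at an unadjusted p under 0.05. Cdkn1a, the p21 gene that halts the cell cycle, was at 76.0, 32.8, 65.0 and 12.6 with saline and at 67.7, 115 and 195 with MCOPPB. The groups overlapped, and the difference of 0.80 ± 0.28 was not called (limma adjusted p = 0.836). Cdkn2a, the p16 gene, was at 0, 4.8, 4.57 and 0 against 0, 2.55 and 0 and was not kept. Of 29 kept p53 targets 19 had a positive difference (median 0.07), and of 17 BCL2 family genes 8. Oprl1, the receptor that MCOPPB binds, and Pnoc, which encodes its peptide ligand, were at 0 in all 7 libraries and so were not detectable in whole liver at this depth. No gene of the 8 in the opioid receptor list passed the level filter.

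Cell cycle genes likewise had no common direction, with 17 of 29 kept members positive (median 0.04). Mki67, a marker of cycling cells, was at 49.2, 17.1, 32.7 and 4.20 with saline and at 92.4, 77.5 and 84.2 with MCOPPB. Its groups did not overlap, and the difference of 0.86 ± 0.24 was not called (limma adjusted p = 0.512). Top2a, another mitotic gene, overlapped at 4.46 to 29.9 against 14.9 to 73.0. The tumour, oncofetal and ductular list had 15 of its genes kept, 11 positive, with a median of 0.13 that was -0.01 without saline 4. Glul, the pericentral glutamine synthetase that some liver tumours carry, was at 10309 to 15892 against 17029 to 21703.

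Lists of non-parenchymal cells had small medians of either sign, several of which moved with saline 4. In bulk tissue, fewer cells of a type and less RNA per cell cannot be told apart. Saline 4 had the lowest summed level of recruited macrophage markers, 1699 beside 3613 to 5424 in the other saline and 2898 to 5044 in the MCOPPB livers. It was also the lowest for stellate cell and matrix genes (6029 beside 8060 to 12738 in the other 6), cholangiocyte markers (370.2), T and NK cell markers (120.4) and neutrophil markers (46.8). With all 7 libraries, 31 of 42 stellate genes had a positive difference and a median of 0.13, against 20 and -0.02 without saline 4. For recruited macrophage markers, 19 of 26 were positive with a median of 0.12, against 8 and -0.07 without it. Of 61 kept interferon genes, 48 were positive with a median of 0.17, against 39 and 0.07 without it. Cholangiocyte markers had 5 of 5 kept members positive, with a median of 0.25, and of 0.19 without saline 4. Kupffer cell markers had 13 of 19 positive, with a median of 0.15, and of 0.046 without saline 4. Other lists lay mostly below 0: endothelial markers had 12 of 29 positive (median -0.03), B and plasma cell markers 4 of 10 (-0.06), and T and NK cell markers 1 of 5 (-0.12). These medians turned positive without MCOPPB 3 (endothelial, 0.053), saline 2 (B and plasma cell, 0.095) and MCOPPB 1 (T and NK cell, 0.029). Red blood cell transcripts had 0 of 7 positive (-0.42). Their median was -0.81 without saline 4 and 9.55e-05 without saline 3. Hepatocyte identity genes had 7 of 33 positive, with a median of -0.19, against 9 and -0.11 without saline 4. Summed levels overlapped between the groups for hepatocyte identity (3280898 to 4260523 against 2538753 to 3805786), Kupffer, endothelial and B cell markers. The adipose list did not overlap, at 57372 to 68432 against 44139 to 54955, and was led by Car3, a carbonic anhydrase that liver also expresses, at 43819.9 to 50850.5 against 23903 to 39798. The defining markers Ncr1 of NK cells, Tnfrsf17 of plasma cells and Sctr of cholangiocytes were at 0 in all 7 libraries. None of these lists held a called gene, and how far the makeup of saline 4 enters the male-biased and clock differences beyond the values without it was not tested.

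**Figure D4:**
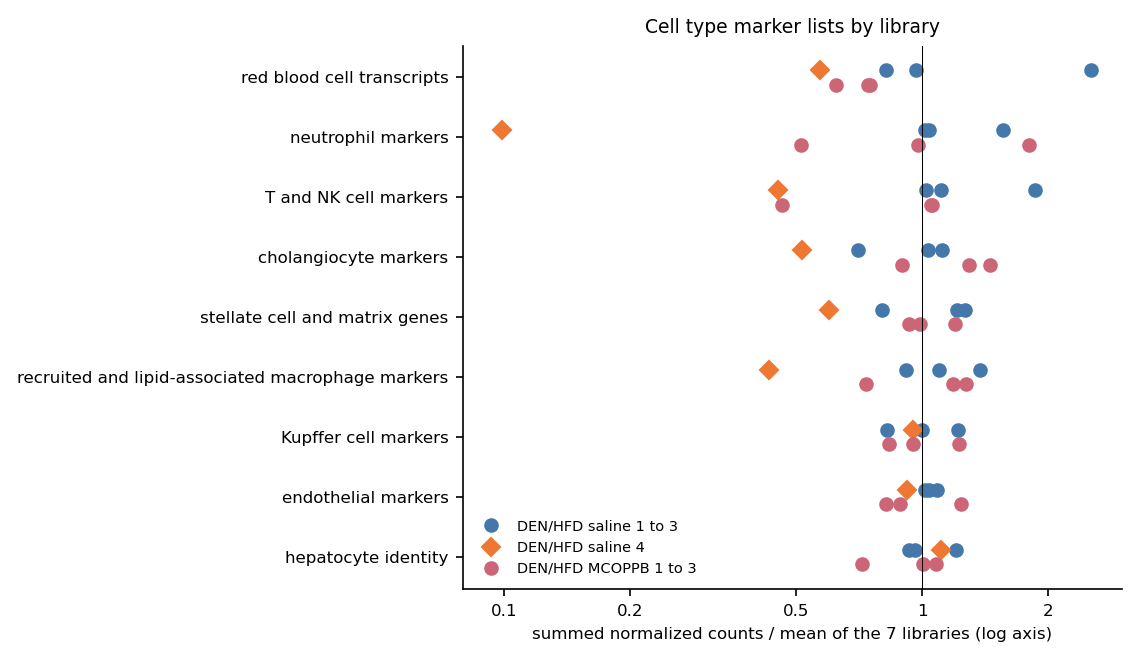
Summed normalized counts of each marker list in each DEN/HFD library, divided by the mean of the 7, on a log axis. Saline 4 (diamonds) is the lowest library for recruited macrophage, stellate, cholangiocyte, T and NK cell, neutrophil and red blood cell lists, and saline 3 is the highest for red blood cell transcripts at 18445 counts.

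The MCOPPB difference under DEN/HFD was then set beside that on chow, which shares no library with it. On chow 37 genes were called (0.320%), and these were picked by their chow values, so their size there is a description. Of the 18 that rose on chow, 15 had a positive difference under DEN/HFD, with medians of 1.55 on chow and 0.22 under DEN/HFD, and 3 did not overlap in that direction. Of the 19 that fell on chow, 16 had a negative difference under DEN/HFD, with medians of -2.78 and -1.42, and 12 did not overlap in that direction. Over all kept genes the sign matched for 47.3%. Each of the 37 had a smaller difference under DEN/HFD, and none was called there. RNA integrity numbers did not overlap between the chow groups, at 9.0 to 9.7 with saline and 9.9 to 10.0 with MCOPPB. With this number as a covariate 15 genes were called on chow, 12 of the 37 among them. RNA quality and MCOPPB are thus hard to tell apart on chow.

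The difference between both MCOPPB effects was called for 8 genes (0.0692%), while 683 had an unadjusted p under 0.05 (5.90%). Cyp2b9 had 0 to 30.4 normalized counts in chow saline and 2115 to 4341 in chow MCOPPB, beside the 181 to 487 and 1011 to 1309.7 under DEN/HFD given above. The DEN/HFD saline livers thus already had more Cyp2b9 than the chow saline livers, and its difference was -3.93 (log2) smaller under DEN/HFD (limma adjusted p = 0.000460). Elovl3, a fatty acid elongase with a male bias, was at 589 to 865 in chow saline and 18.3 to 83.6 in chow MCOPPB. Under DEN/HFD it was at 319.8, 326, 328 and 183 with saline and at 709, 383 and 266 with MCOPPB, overlapping, and the effects differed by 3.24 (limma adjusted p = 0.000535). For Usp2, chow livers held 185 to 594 with saline and 341 to 774 with MCOPPB, and the effects differed by -2.25 (limma adjusted p = 0.0432).

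Cyp2b13 and Cyp2c40, both female-biased P450 genes, had smaller MCOPPB differences under DEN/HFD than on chow, by -1.93 and -2.74 (limma adjusted p = 0.0394 each). Dtx4, the DNA repair gene Dclre1a and the predicted gene Gm43302, which overlaps Gbp6 and Gbp10 on the same strand, completed the 8. Their effects differed by 1.47, -1.97 and 2.56 (limma adjusted p = 0.0432 each). The signs were opposite, at -0.63, 1.34 and -0.94 on chow and 0.84, -0.64 and 1.61 under DEN/HFD. Gm43302 was at 0 in every chow MCOPPB liver and in most DEN/HFD saline livers. Cyp2b13 was at 0 in every chow saline liver. Genes at 0 in a whole group have a small estimated spread there. The Cyp2b9 and Elovl3 differences were called under every alternative tried. The other 6 were lost under 14 to 16 alternatives each, among them the removal of any 1 DEN/HFD MCOPPB library. For Inmt the effects differed by -1.59, which was not called (limma adjusted p = 0.258), and for Cyp17a1 by 0.48 (limma adjusted p = 0.876), where chow MCOPPB livers were also higher, at 286 to 686 against 141 to 242.

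**Figure D5:**
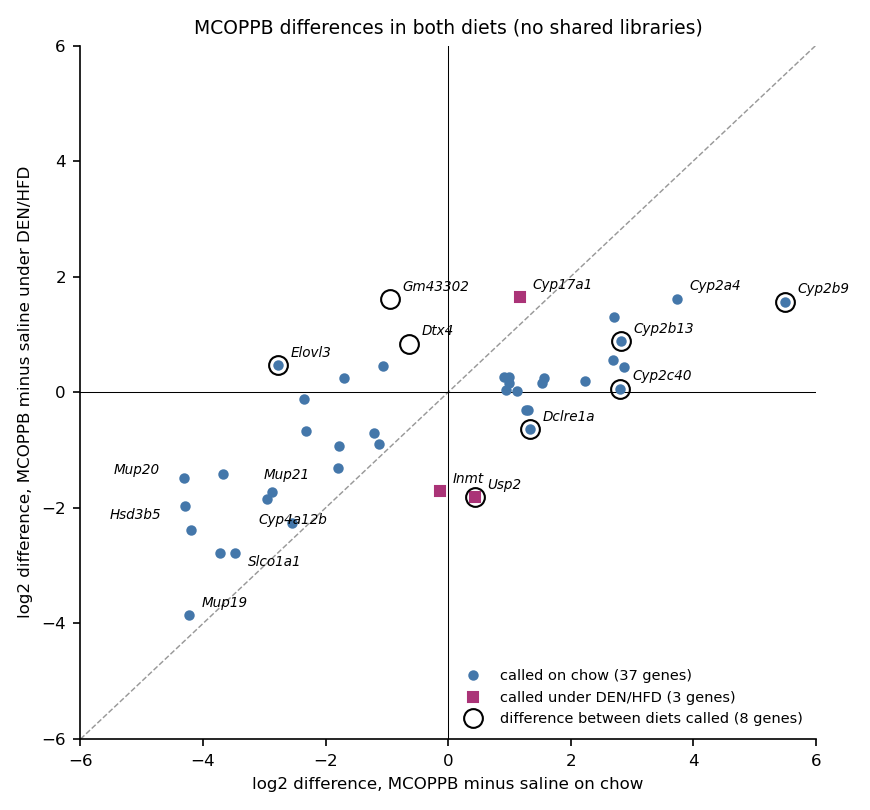
Log2 difference of MCOPPB minus saline on chow (x axis) and under DEN/HFD (y axis) for genes called on chow (37), under DEN/HFD (3) or for the difference between both (8, ringed), with a dashed line of equal difference. Cyp17a1 is on the same side in both (1.17 and 1.64), Inmt and Usp2 are near or above 0 on chow (-0.13 and 0.44) and low under DEN/HFD, and Elovl3 has opposite signs (-2.78 and 0.47).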

How the data were processed

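The labels' protocols describe TRIzol extraction, 250 ng of RNA per library, directional NEBNext Ultra II preparation and 75 nt single reads. Trimmomatic, STAR 2.7.0e, HTSeq and DESeq2 and the build GRCm38 (mm10) are named per the submitters' processing notes, without roles. Strand handling during counting is not given in the sources used here. The deposited table holds variance-stabilised log2 values for 54281 genes, with a lowest value standing for 0 reads. Inverted values under 20 reads were whole, within 0.01 read, for 15.5% to 42.9% per library, so reads were not recovered and normalized counts and depths are estimates. IDs were matched to GENCODE M21 (54107, of which 53544 had the same version).

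Differences were fitted with limma 3.58.1 in R 4.3.3, with 4 group means over 15 libraries, a mean-variance trend, with 11 residual and 6.34 (median) prior degrees of freedom. The procedure was tested on simulated data with noise drawn independently for each gene and library, unlike the library-wide deviation of saline 4. The first RIN value in the labels was used. Genes were named by rule: called genes, the 12 smallest p per direction without overlap, up to 4 per list, fixed genes of interest (some members are not reported here), and the largest differences between diets; Npas2, members named for family sums and some contrasting list members were chosen after their values were seen. The genes and lists were chosen with earlier results of these data known. Promoters are RefSeq, GRCm38.p6.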

Additional observations from a re-analysis of the deposited data

Results flagged for a closer look

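Within the 4 saline animals, 7 of 100 tested values had 1 animal far from the other 3 by Dixon's test, which chance gives in about 1 of 20 groups. Saline 4 was that animal for 4 of them: Inmt at 7118 normalized counts, F11 (coagulation factor XI) at 810.1, Fasn at 1887 and Elovl3 at 183. Saline 3 was that animal for Hacl1 at 373, Alb at 2818739 and Gm43302 at 29.3.

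The MCOPPB effect differed between DEN/HFD and chow for 8 genes by the interaction term in limma (log2, DEN/HFD minus chow). The effect was more negative or less positive under DEN/HFD for Cyp2b9 (-3.93), Cyp2c40 (-2.74), Usp2 (-2.25), Dclre1a (-1.97) and Cyp2b13 (-1.93). It was more positive or less negative for Elovl3 (3.24), Gm43302 (2.56) and Dtx4 (1.47). The largest adjusted p of the 8 was 0.0432. The reason was not tested, and the carcinogen and the diet cannot be told apart.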

How the results depend on the processing

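Counts of called genes depended on the settings. The main model called 3 under DEN/HFD and 8 for the difference between diets. The fit of the 7 libraries alone called 8 under DEN/HFD, without Inmt. Without the filter 6 and 2 were called, with a stricter filter 3 and 6, after quantile normalization 0 and 9, on log2 of normalized count plus 1 3 and 4, with array weights 8 and 10, and with RIN as a covariate 4 and 3. Leaving out 1 library at a time gave 0 to 6 under DEN/HFD and 2 to 12 for the difference between diets. Without chow saline 2 the DEN/HFD count was 6, and it was 0 without any DEN/HFD library or chow saline 3, where 415 to 661 genes still had an unadjusted p under 0.05. Same-numbered animals showed no common deviation (correlations -0.357, 0.0942 and 0.0468), but so few pairs cannot decide whether numbers pair them. With the number as a replicate block 0 and 2 genes were called, and 424 under DEN/HFD had an unadjusted p under 0.05.

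Signs turned for a few small, uncalled log2 differences: Bcl6 was 0.18 with the block, and Fasn was -0.0916 with array weights. Leaving out 1 library at a time gave ranges of -0.31 to 0.11 for Alb, -0.51 to 0.15 for Bcl6, -0.0396 to 0.24 for Cyp2c40, -0.32 to 0.27 for Fasn and -0.0442 to 0.25 for Nr1d1. The cause was not tested. Estimated depths of 9.32 M to 18.2 M reads and 3 against 4 animals limit the detection of small or low differences.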

Other observations

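Without the filter on low values, Ggt7 and the unclassified transcript Gm43924 were also called (limma adjusted p = 0.0203 and 0.0250), both chosen here after their values were seen. Ggt7, a gamma-glutamyltransferase family member, was at 0 in all 4 saline livers and at 2.85, 3.83 and 5.59 normalized counts with MCOPPB. Gm43924 was at 0 with saline and at 7.97, 5.89 and 8.48 with MCOPPB. In all, 19 of the 54281 genes were at 0 in every saline liver and above 0 in every MCOPPB liver, and 34 showed the reverse. Only 2 and 3 of them passed the level filter. As with Npas2, genes at 0 in a whole group have a small estimated spread there.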
